A study of Drosophila melanogaster with 33 samples.

Results

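Larval brains carrying l(3)mbt[ts1] over l(3)mbt[E2] were compared with brains homozygous for l(3)mbt[ts1], all raised at 29 °C, the restrictive temperature. The comparison takes the 3 transheterozygous arrays (replicates 1 to 3, written TS1/ME2 in the sample labels and ts1/E2 here) and the ts1 homozygous arrays of the same site (replicates 4 to 6), so 6 of the 33 arrays of the series. All 6 were run at IRB Barcelona, were chosen by their labels alone, and hold total RNA of Drosophila melanogaster hybridised to Affymetrix arrays, 1 array per sample. Both groups lack a wild-type l(3)mbt allele, and they differ in 1 of their alleles. Levels in 3 further groups stand beside them as a description: E2 homozygotes at 29 °C (E2), wild type w[1118] brains (WT, for which no temperature is given) at IRB, and ts1 homozygotes at 29 °C run at EMBL (replicates 1 to 3), each with 3 arrays. The labels give neither the molecular lesion of an allele, nor the larval age or sex, nor whether replicates came from separate pools of brains. The spread was estimated from all 24 IRB arrays in 8 groups. These include E2 homozygotes at 17 °C and cultured tumours of rounds 1, 5 and 10. The p-values and SEs therefore rest on the spread pooled within those groups, not on that of the 6 arrays alone, and it may be technical.

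l(3)mbt encodes a nuclear protein with malignant brain tumour (MBT) repeats, which bind methylated histone tails, and it is found in repressor complexes that include the dREAM complex of Drosophila. Loss of the gene gives larval brain overgrowth and transplantable tumours that express genes normally restricted to the germline, among them piRNA pathway genes.

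The arrays were first checked against their labels. Pan-neuronal elav lay between 12.05 and 12.53 on the log2 scale on the 6 arrays and the glial gene repo between 10.22 and 11.47. The synaptic gene nSyb ran from 8.19 to 9.74, and the neuroblast genes dpn, ase and mira from 6.24 to 11.15, so all the brain markers were well above 4, the level below which a value was treated here as unmeasured. Correlations between arrays over the tested genes were 0.951 to 0.969 within ts1/E2, 0.872 to 0.956 within ts1 and 0.83 to 0.937 between the groups. Replicate 6 stood apart among the ts1 arrays: its median log2 value was 7.96, the lowest of the 6, and its eIF4a signal from the 5' end was 2.38 log2 units below that from the 3' end, against 1.27 to 1.89 below on the others. Counts over all genes and over several lists are given with and without it. The differences of single genes include it unless stated. The array of E2 replicate 1 had an eIF4a 5' signal 11.96 log2 units below the 3' signal, so E2 means carry that array. It also enters the pooled spread, and so the SEs and p-values of ts1/E2 against ts1.

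Of the gene itself, l(3)mbt transcript, the ts1 arrays read 7.71, 8.33 and 5.66 and the ts1/E2 arrays 8.36, 7.82 and 8.05. The groups overlapped, and the difference of 0.84 ± 0.60 (SE) did not pass limma's test (adjusted p = 0.499). Apart from the low value on ts1 replicate 6, the mutant arrays were near the WT mean of 7.52.

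Of 8193 tested genes, 430 differed between ts1/E2 and ts1 (5.25%), of which 361 were higher in ts1/E2 (4.41%) and 69 were lower (0.842%). A gene was called where limma's Benjamini-Hochberg adjusted p was under 0.05 and the log2 difference was at least 1. The median difference over all tested genes was 0.01. Of the calls, 84% were higher in ts1/E2, and 72.7% were with quantile normalisation of the arrays, 68.3% without ts1 replicate 6, 62.7% with array weights and 61% without the 3 IRB arrays that stand apart (ts1 replicate 6, E2 replicate 1 and replicate 2 of E2 at 17 °C). Among the genes called higher the median difference was 2.47, and 72 of them differed by at least 4. Among those called lower the median was -1.63, and 6 differed by at least 4. The arrays of the groups did not overlap for 350 of the higher and 65 of the lower genes, against 26.4% of all tested genes. The calls were made on the same arrays, so this separation is a description and no support for them. In 130 of the genes called higher the ts1 mean was under 4, which makes the size of their difference uncertain. Per RefSeq's Release 6 annotation the calls lay on every large arm, from 3.66% of the tested X genes called higher to 4.69% of those on 2R. The calls leaned on single arrays: leaving each of the 6 out in turn, 169 higher and 22 lower genes were called every time. With the spread estimated from these 6 arrays alone, 113 genes were called in place of 430, 101 of them higher. In bulk RNA, fewer cells of a type and less RNA per cell cannot be told apart, here and in all that follows.

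**Figure D1:**
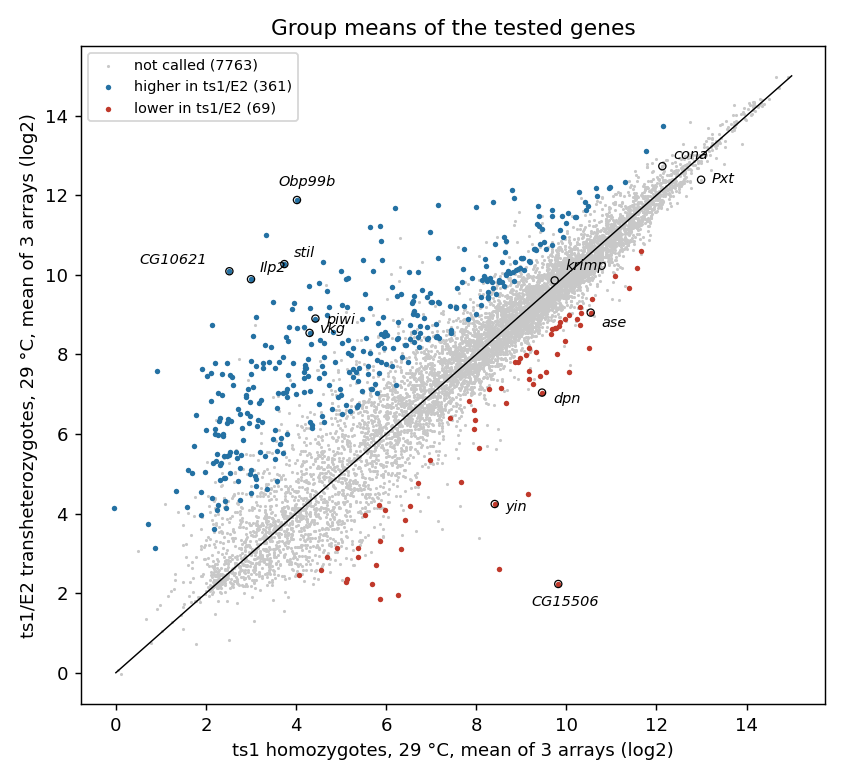
Mean log2 expression of each tested gene in ts1 homozygotes (horizontal axis) and ts1/E2 transheterozygotes (vertical axis), 3 arrays each at 29 °C; the line marks equal levels. Blue points are the 361 genes called higher in ts1/E2 and red points the 69 called lower, and many blue points have a ts1 mean under 4.

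Of the genes tested in the neurosecretory and ring gland list, 11 of 24 were called higher in ts1/E2 than in ts1, and all 11 encode neuropeptides or insulin-like peptides. The list holds peptides released by secretory neurons together with genes of the endocrine gland attached to the brain. Like the other lists, it was chosen with earlier results of these data known, so its counts are a description. The called members were 45.8% of those tested, against 4.41% of all genes, with 0 called lower, 13 not passing and a median difference of 2.26 against 0.01 over all tested genes. Without ts1 replicate 6, when 3.34% of all tested genes were called higher and 1.55% lower, the counts were 9 and 0 and the median 2.16. Leaving each array out in turn, 7 of the 11 were called every time, and 3 of the 11 were called with the spread taken from the 6 arrays alone.

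Ilp2, an insulin-like peptide made by the insulin-producing cells of the brain, read 2.92, 4.67 and 1.43 in ts1 and 10.50, 10.62 and 8.55 in ts1/E2. The groups were far apart, at 6.89 ± 0.56 (SE; limma adjusted p = 7.95e-07). The other groups lay with ts1/E2: Ilp2 averaged 9.62 in E2, 9.97 in WT and 9.17 in the ts1 homozygotes run at EMBL. Ilp5, which the same cells make, read 6.07, 6.96 and 2.43 in ts1 and 10.87, 10.45 and 8.44 in ts1/E2, a difference of 4.77 ± 0.86 (adjusted p = 0.00243), and averaged 11.50 in WT. Without ts1 replicate 6 the Ilp5 difference was 3.40. Crz, which encodes the peptide corazonin, read 8.02, 7.70 and 7.47 in ts1 and 10.93, 10.89 and 10.10 in ts1/E2. Its difference was 2.91 ± 0.40 (adjusted p = 0.000201), and unlike Ilp2 it was well measured on all 6 arrays. Mip, encoding myoinhibiting peptides, read 2.21, 2.17 and 2.17 in ts1 and 7.38, 7.65 and 3.37 in ts1/E2, so ts1/E2 replicate 3 was close to ts1. Its difference of 3.95 ± 0.88 (adjusted p = 0.0107) was lost without ts1/E2 replicate 1 or 2, with a highest adjusted p of 0.0718.

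The other 7 called members, named here after their values were seen, were NPF, Dh44, sNPF, Dh31, CCHa2, Nplp1 and Eh, with differences from 1.70 to 2.87. The diuretic hormone gene Dh44 read 5.51, 5.35 and 5.57 in ts1 and 8.60, 8.61 and 7.06 in ts1/E2, and neuropeptide F (NPF) read 5.59, 4.85 and 5.02 against 8.15, 8.47 and 7.47. Neither gene's groups overlapped, and WT averaged 8.92 for Dh44 and 8.86 for NPF. Calls for Dh44, NPF, Dh31 and sNPF held whichever array was left out. CCHa2 was lost without ts1/E2 replicate 1 (adjusted p = 0.0581), Nplp1 without any of 4 arrays and Eh without any of 5, with highest adjusted p of 0.167 and 0.208.

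The 5 members described here that mark the ring gland itself were high on 1 or 2 of the ts1/E2 arrays and did not pass the test. The ecdysone synthesis gene sad read 4.87, 8.13 and 4.85 in ts1 and 4.89, 4.86 and 14.52 in ts1/E2, so ts1/E2 replicate 3 was high, ts1 replicate 5 was partly raised and the other 4 were alike. The sterol enzymes phtm and nvd and the juvenile hormone enzyme jhamt were also highest on ts1/E2 replicate 3, at 12.68, 9.99 and 8.0, and next on ts1 replicate 5, at 6.67, 6.53 and 4.49. For nvd, ts1 replicate 6 was also raised, at 4.74 against 3.15 to 3.30 on the other three. Akh, the adipokinetic hormone of the corpora cardiaca, read 3.14, 3.12 and 2.97 in ts1 and 2.62, 10.91 and 12.72 in ts1/E2, so 2 of the ts1/E2 arrays were high. None of these 5 genes was called, with limma adjusted p from 0.139 to 0.876. Ilp2, Ilp5, Crz, Dh44 and NPF were higher on ts1/E2 replicates 1 and 2, where sad was at 4.89 and 4.86, than on replicate 3, where sad was highest. Akh did not follow sad, being high on replicates 2 and 3. The part of ring gland RNA in the neuropeptide differences was not tested. The summed list, as a mean log2 level, ran from 5.12 to 5.83 in ts1 and from 7.55 to 8.09 in ts1/E2.

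**Figure D2:**
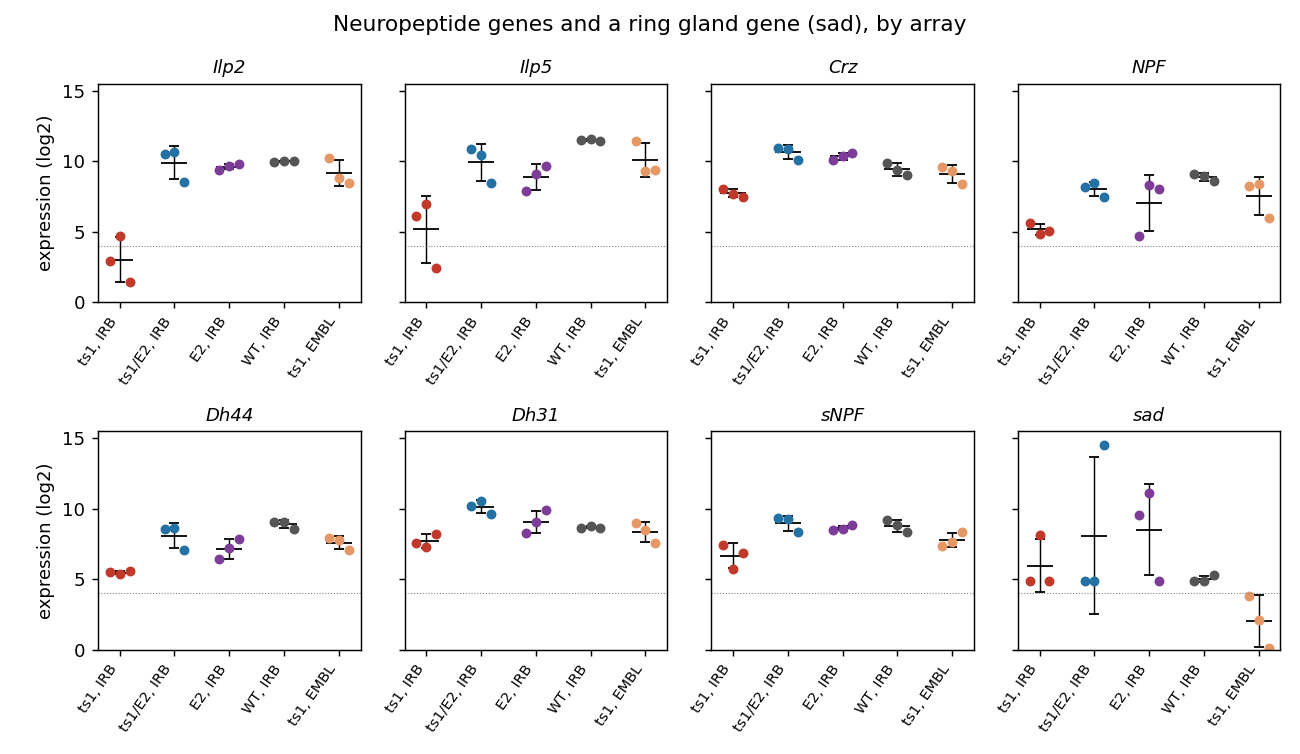
Log2 expression of 7 neuropeptide genes and of sad, a ring gland gene, on each array of 5 groups; points are arrays, bars the mean and SD of 3 arrays, and the dotted line a log2 value of 4. The ts1 arrays at IRB lie below the other groups for Ilp2, Ilp5 and Dh44, while sad is at 14.52 on a single ts1/E2 array.

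A subset of the germline genes was higher in ts1/E2 than in ts1 homozygotes, while others were high in both. In the list of germline stem cell and oogenesis genes, 7 of 27 tested members were called higher (25.9%) and 0 lower, with a median difference of 0.02 against 0.01 over all tested genes. Of these 7, 5 were called whichever array was left out and 4 with the spread taken from the 6 arrays alone. In the piRNA pathway list, whose products silence transposons in the germline, 2 of 27 were called higher (7.41%, near the 4.41% of all genes) and 0 lower, with a median of 0.65 that became -0.07 without ts1 replicate 6. The meiosis list had 2 of 19 called higher (10.5%) and the testis list 1 of 16 (6.25%), small counts against the same 4.41%, and neither had any called lower. Their median differences were 0.06 and -0.40. In the testis list 6 of 16 differences were above 0, and the lowest were ProtA at -2.29 and nht at -2.21, neither of them called.

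piwi, the nuclear Argonaute of the piRNA pathway, read 4.12, 4.37 and 4.78 in ts1 and 9.08, 8.55 and 9.08 in ts1/E2. The difference of 4.48 ± 0.37 (SE), a 22.3-fold difference in signal, had a limma adjusted p of 7.95e-07. The ts1 arrays lay at the WT level, which averaged 4.19, whereas piwi averaged 8.64 in E2 and 10.62 in the ts1 homozygotes run at EMBL. SoYb, a Tudor-domain gene of the pathway, read 3.12, 3.13 and 2.69 in ts1 and 5.28, 4.73 and 4.96 in ts1/E2 (difference 2.01 ± 0.45, adjusted p = 0.0108), and its call was lost without ts1/E2 replicate 1 (adjusted p = 0.0520). The other Argonautes of the pathway did not pass: aub read 7.73, 9.17 and 3.41 in ts1 and 8.14, 8.43 and 7.87 in ts1/E2, and AGO3 read 7.13, 8.53 and 4.88 against 8.31, 8.58 and 8.42. For both, the low ts1 value was replicate 6, where aub was below its WT mean of 4.68 and AGO3 above its WT mean of 3.97. On the remaining arrays both were above their WT means. Without replicate 6 the differences of aub and AGO3 were -0.30 and 0.61.

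stil, needed for survival of female germ cells, read 3.89, 4.88 and 2.43 in ts1 and 10.31, 9.95 and 10.56 in ts1/E2. This was the largest difference of the germline list, at 6.54 ± 0.70 (SE; limma adjusted p = 1.79e-05). The EMBL ts1 arrays were also low for stil, with a mean of 4.66, while E2 arrays read 6.81, 10.05 and 10.50. bgcn, a partner of bam in germline differentiation, read 4.29, 5.04 and 2.23 in ts1 and 8.81, 8.61 and 8.61 in ts1/E2 (4.83 ± 0.56, adjusted p = 3.74e-05). zpg, a gap junction gene of the germline, read 3.65, 3.88 and 2.28 against 7.76, 8.0 and 7.20 (4.38 ± 0.80, adjusted p = 0.00256), and the translational repressor gene nanos read 3.11, 3.17 and 3.10 against 6.18, 6.33 and 6.08 (3.07 ± 0.54, adjusted p = 0.00192). Unlike stil, bgcn, zpg and nanos averaged 7.40 to 7.79 in the EMBL ts1 arrays. Calls for stil, bgcn, zpg, nanos and the oogenesis cyclin CycJ (difference 2.55 ± 0.39) held whichever array was left out.

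gnu, a regulator of the early embryonic cell cycle, read 6.53, 3.81 and 2.54 in ts1 and 9.78, 9.71 and 9.64 in ts1/E2. Its difference of 5.42 ± 1.36 (limma adjusted p = 0.0211) was lost when any of 4 arrays was left out, with a highest adjusted p of 0.0807, and swa, which localises bicoid mRNA in the oocyte, was lost for any of 5 arrays (difference 3.12 ± 0.84, adjusted p = 0.0315, highest 0.149). Of the meiosis genes, vilya, needed for meiotic double-strand breaks, read 2.73, 3.02 and 2.93 in ts1 and 7.50, 6.64 and 6.76 in ts1/E2 (4.08 ± 0.79, adjusted p = 0.00389). The groups were well separated, and EMBL ts1 averaged 5.61. E2 arrays read 2.54, 7.03 and 7.07, the lowest being replicate 1, the array with the weak 5' signal. c(2)M, a synaptonemal complex gene, differed by 1.47 ± 0.38 (adjusted p = 0.0239) and the testis gene ocn by 2.53 ± 0.54 (adjusted p = 0.00808). c(2)M was lost without any of 5 arrays, with adjusted p up to 0.0899, and ocn without ts1/E2 replicate 1 (adjusted p = 0.0530).

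Other germline genes did not pass the test, and several of them were at a high level in both genotypes. The synaptonemal complex gene cona read 12.17, 12.77 and 11.46 in ts1 and 12.64, 12.67 and 12.86 in ts1/E2 (difference 0.59 ± 0.27, limma adjusted p = 0.227), against a WT mean of 2.9. The piRNA gene krimp read 9.68, 10.54 and 9.0 against 9.46 to 10.13, with a WT mean of 2.73. Both genes' groups overlapped. Pxt, a peroxidase needed for follicle maturation, read 13.11, 13.39 and 12.47 in ts1 and 12.44, 12.23 and 12.49 in ts1/E2, with WT at 2.41. Kots read 12.32, 12.77 and 11.64 against 11.58, 11.65 and 11.75, with WT at 2.34. The differences of Pxt and Kots were -0.61 ± 0.56 and -0.58 ± 0.26. The thioredoxin gene dhd of the oocyte also overlapped (0.18 ± 0.67), as did the differentiation gene bam (-0.65 ± 1.11), while the helicase gene vas read 7.70, 7.30 and 7.94 in ts1 and 5.44, 6.92 and 7.02 in ts1/E2 (-1.19 ± 0.87, limma adjusted p = 0.512). The vas arrays of the groups did not overlap. TrxT, the testis thioredoxin next to dhd, read 6.82, 7.02 and 3.26 against 6.36 on ts1/E2 replicate 1 and up to 10.63 on the other two, and missed the threshold (3.29 ± 1.04, adjusted p = 0.0649). Tektin-C lay at 1.02 to 1.05 on all 6 arrays and at 10.43 in WT, so it was unmeasured in both mutant groups.

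**Figure D3:**
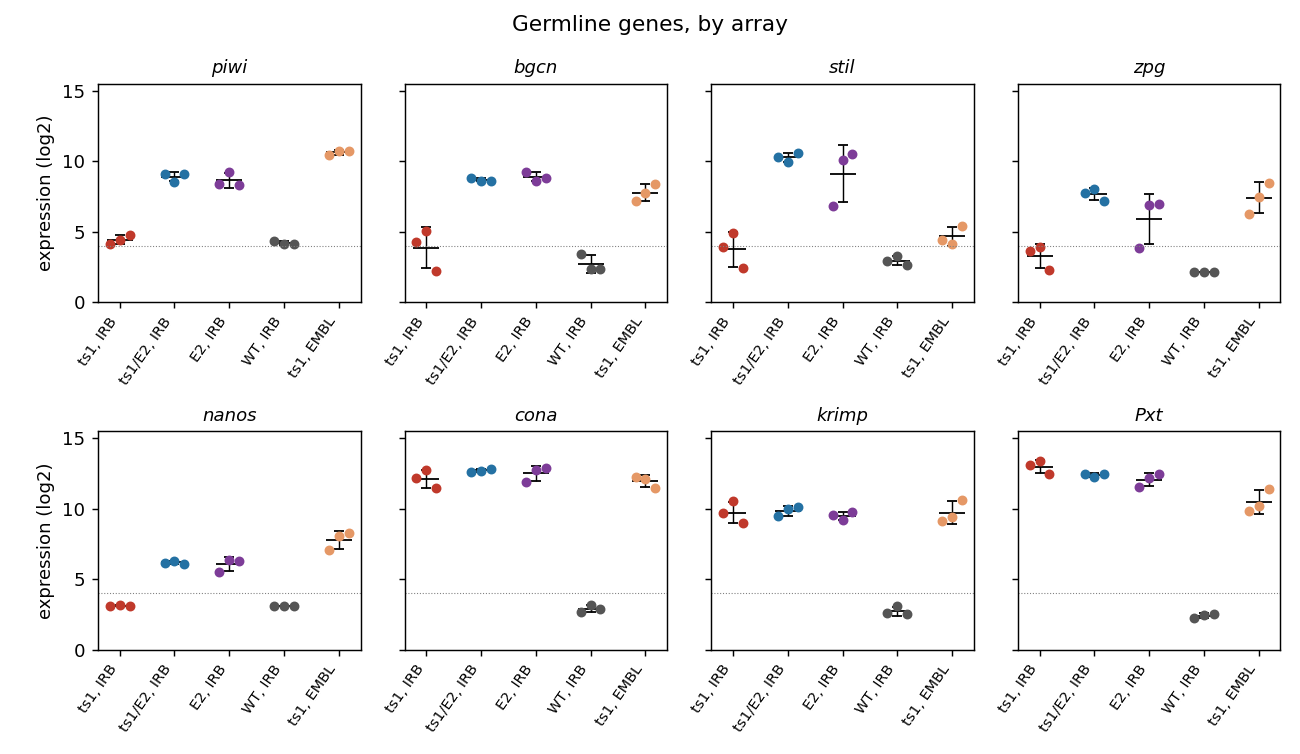
Log2 expression of 8 germline genes on each array of 5 groups; points are arrays, bars the mean and SD of 3 arrays, and the dotted line a log2 value of 4. For piwi, bgcn, zpg and nanos the ts1 arrays at IRB lie far below ts1/E2 and below the ts1 arrays at EMBL, whereas cona, krimp and Pxt are high in all 4 mutant groups and low in WT.

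Of 26 tested genes that mark neuroblasts, the stem cells of the larval brain, and their daughter ganglion mother cells, 4 were called lower in ts1/E2 (15.4%, against 0.842% of all genes), 0 were called higher and 22 did not pass, with a median difference of -0.60 against 0.01 over all tested genes. Without ts1 replicate 6 the count of lower calls was 7 and the median -0.73.

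dpn, a bHLH repressor that maintains neuroblasts, read 9.67, 10.05 and 8.67 in ts1 and 7.22, 6.24 and 7.67 in ts1/E2. The difference was -2.42 ± 0.44 (SE; limma adjusted p = 0.00274), and WT, at 8.5, lay between the groups while E2, at 7.17, lay with ts1/E2. The Snail-family gene wor read 11.68, 11.98 and 10.49 in ts1 and 9.16, 9.89 and 9.96 in ts1/E2 (-1.72 ± 0.35, adjusted p = 0.00575). The proneural gene ase read 10.54, 11.15 and 9.94 against 9.25, 8.59 and 9.31 (-1.49 ± 0.26, adjusted p = 0.00201), with a WT mean of 10.44. For dpn, wor and ase the groups did not overlap and the calls held whichever array was left out. With the spread taken from the 6 arrays alone none of the 3 passed, with adjusted p of 0.111, 0.161 and 0.149. esg, also of the Snail family, overlapped between the groups (-1.18 ± 0.33, adjusted p = 0.0388) and was lost without any of 4 arrays, with adjusted p up to 0.172. The optic lobe and neuroepithelial gene tll read 8.17, 8.95 and 6.98 in ts1 and 8.07, 6.61 and 7.97 in ts1/E2 and did not pass (-0.49 ± 0.56, adjusted p = 0.720).

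Of the neuronal list 0 of 22 tested members were called in either direction, with a median difference of 0.49, and without ts1 replicate 6 the count of higher calls was 3. elav differed by -0.02 ± 0.23 and repo by 0.34 ± 0.40. The mean level of the neuronal list ran from 8.08 to 8.86 in ts1 and from 8.89 to 9.51 in ts1/E2, and that of the neuroblast list from 9.83 to 10.49 and from 9.33 to 9.73. Their part in the neuropeptide and neuroblast results was not tested. Of the cell cycle and DNA replication list 0 of 24 were called, with a median of -0.34 that moved to -0.82 without ts1 replicate 6, when 1 gene was called lower.

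**Figure D4:**
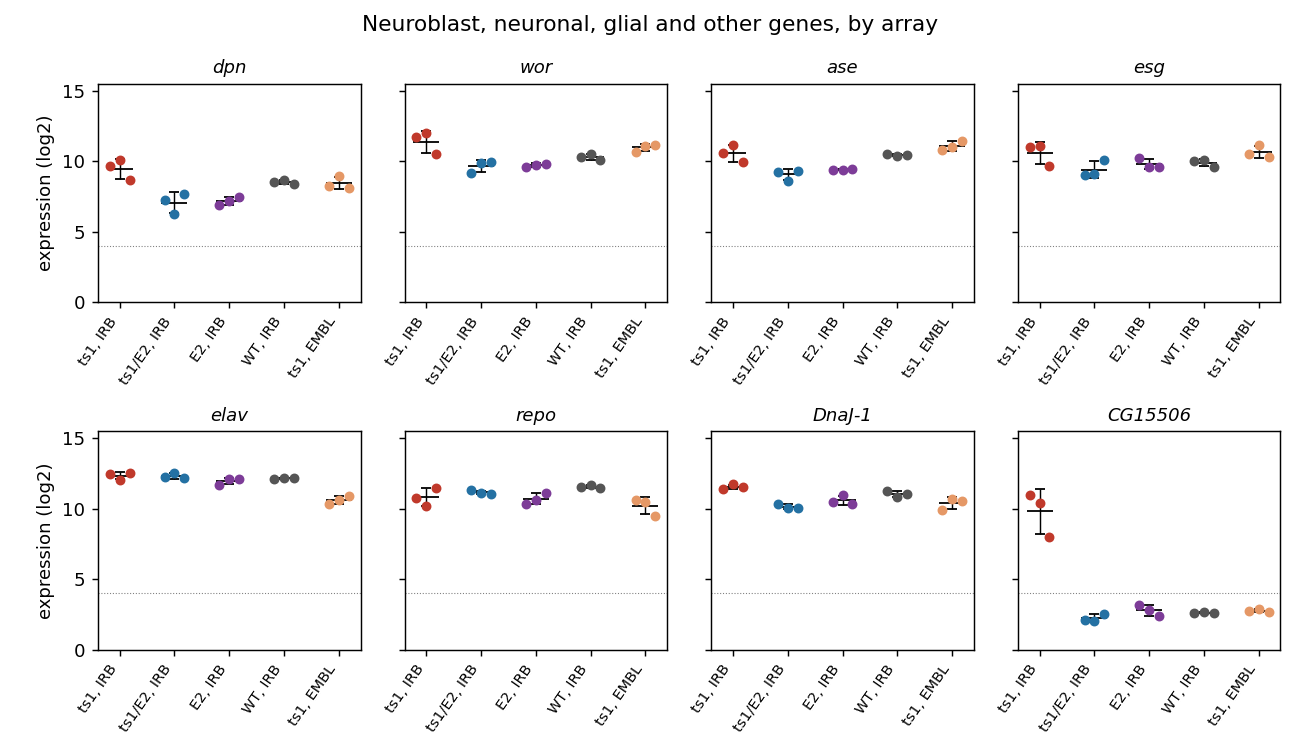
Log2 expression of the neuroblast genes dpn, wor, ase and esg, the neuronal gene elav, the glial gene repo, the chaperone gene DnaJ-1 and CG15506 on each array of 5 groups; points are arrays, bars the mean and SD of 3 arrays, and the dotted line a log2 value of 4. The ts1/E2 arrays lie below all ts1 arrays at IRB for dpn, wor and ase, and CG15506 is high in the IRB ts1 arrays alone among the 5 groups shown.

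Outside the lists, many of the genes with the largest higher differences are known by number only. CG10621 read 2.77, 2.52 and 2.28 in ts1 and 10.12, 10.08 and 10.07 in ts1/E2, a difference of 7.57 ± 0.80 (limma adjusted p = 1.54e-05). The ts1 arrays of both sites were low for it, with 3.16 at EMBL, as was WT at 3.28, and E2 averaged 8.93. CG32313 read 3.28, 5.37 and 1.37 in ts1 and 11.17, 10.81 and 11.02 in ts1/E2 (7.66 ± 0.70, adjusted p = 2.86e-06), but it averaged 10.45 in the EMBL ts1 arrays. pyd3, an enzyme of pyrimidine breakdown, read 0.94, 4.59 and 0.84 against 9.29, 8.91 and 8.06 (6.63 ± 0.92, adjusted p = 0.000227). CG14787 differed by 6.68, CG30380 by 5.84, a10 (an antennal protein) by 5.83, CG13067 by 5.71, CG9427 by 5.60 and CG31373 by 5.42, with adjusted p from 0.000136 to 0.00789. For these, CG10621, CG32313 and pyd3 included, the call held whichever array was left out. CG15353, the sialic acid gene Csas and the transporter gene MFS9 differed by 5.72, 5.56 and 5.50, but their calls were lost without some single arrays, with adjusted p up to 0.0917, 0.0552 and 0.0972. Without ts1 replicate 6 these genes differed by 4.79, 3.21 and 3.71. Set against the EMBL ts1 arrays, pyd3 and CG13067 differed by 0.18, CG31373 by 0.83 and CG9427 by 1.54. There CG14787, CG30380 and a10 differed by 2.05 to 2.5, CG15353 by -0.13, Csas by 0.03 and MFS9 by 2.9.

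Among genes lower in ts1/E2, CG15506 had the largest difference. It read 11.00, 10.42 and 8.03 in ts1 and 2.09, 2.04 and 2.56 in ts1/E2, a difference of -7.59 ± 0.59 (SE; limma adjusted p = 5.15e-07). It averaged 2.80 in E2, 2.62 in WT and 2.76 in the EMBL ts1 arrays, so only the ts1 arrays at IRB carried signal among these groups. CG43104 had the same order at a lower level, with 4.69, 4.70 and 6.01 in ts1 and 2.36, 2.30 and 2.38 in ts1/E2 (-2.79 ± 0.35, adjusted p = 0.000108) and 2.35 in the EMBL ts1 arrays. yin, a peptide transporter gene, differed in that the ts1 arrays of both sites were high: it read 8.91, 8.83 and 7.50 in ts1 and 3.93, 3.91 and 4.87 in ts1/E2 (-4.18 ± 0.58, adjusted p = 0.000243), with 8.23 at EMBL and 4.83 in E2. GILT2, a lysosomal thiol reductase gene, read 9.75, 6.72 and 10.99 against 4.47, 4.14 and 4.82 (-4.68 ± 0.93, adjusted p = 0.00471), and CG14050 read 5.04, 4.48 and 5.77 against 2.72, 2.05 and 2.03 (-2.83 ± 0.49). Calls for these 5 genes held whichever array was left out. The EMBL ts1 arrays averaged 5.27 for GILT2, nearer to ts1/E2, and 4.45 for CG14050, nearer to the IRB ts1 arrays.

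The remaining genes of the 15 named by size as lower, CG9416, the muscle gene bt, the chitinase gene Cht5, CG3281, the pigment gene y, CG18467, GEFmeso, CG12911, the lipocalin gene NLaz and the receptor gene mthl10, differed by 2.49 to 5.90 in size with adjusted p from 0.0113 to 0.0482 and each lost the call without some single array. The probe sets of mthl10 disagreed, with a difference of -1.24 when they were averaged (adjusted p = 0.148). Cht5 read 5.98, 3.62 and 7.99 in ts1 and 1.70, 1.85 and 2.02 in ts1/E2 (-4.0 ± 1.01), so ts1 itself spread over more than 4 log2 units. Sox14, an ecdysone-induced factor with a like order, read 8.10, 5.50 and 9.30 against 6.09, 2.88 and 3.59 and did not pass (-3.45 ± 1.26, limma adjusted p = 0.112), and EcR (0.53 ± 0.39) and br (-0.04 ± 0.12) did not pass either. Of the ecdysone and metamorphosis list 1 of 24 was called lower (4.17%, against 0.842% of all genes), Cht5, with a median of -0.23. The Hsp40 gene DnaJ-1 read 11.43, 11.73 and 11.56 in ts1 and 10.37, 10.03 and 10.08 in ts1/E2 (-1.41 ± 0.23, adjusted p = 0.00103). It was the only call among 10 tested heat shock genes (10%, against 0.842% of all genes called lower).

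A further contrast set ts1/E2 against the midpoint of both homozygotes, which would be its log2 level if the alleles were additive on that scale. It shares its arrays with the comparison above and is no second line of evidence. limma called 93 of 8193 genes, 77 above the midpoint (0.940%) and 16 below it (0.195%), and without E2 replicate 1 it called 107. The count hung on single arrays: it was 24 without ts1/E2 replicate 2, 38 without ts1/E2 replicate 1 and 180 without E2 replicate 3, and it was 39 with the 15 IRB brain arrays and 409 with array weights. Obp99b lay furthest above the midpoint among the named genes, by 7.48 ± 0.99 (SE; adjusted p = 0.000655): the ts1 arrays read 3.35, 4.37 and 4.36, the E2 arrays 4.03, 5.95 and 4.35, and the ts1/E2 arrays 12.47, 12.07 and 11.10. Both homozygous groups at IRB were thus low, and the transheterozygotes were near the WT mean of 11.86. The ts1 homozygotes run at EMBL read 12.85, 7.02 and 8.59. piwi lay 2.37 ± 0.32 above the midpoint (adjusted p = 0.000755), at 8.90 in ts1/E2, 8.64 in E2 and 4.43 in ts1. Ilp2, at 3.58 ± 0.49 above, also lay near E2, and so did CG15506, at 4.08 below (-4.08 ± 0.51). stil was 3.85 ± 0.61 above the midpoint, with ts1/E2 at 10.27 and E2 at 9.12, a mean that holds the array with the weak 5' signal.

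Obp99b is a secreted odorant-binding protein gene that the larval fat body expresses, and it belonged to a list of fat body and salivary gland genes. Of that list's 16 tested members 3 were called higher (18.8%, against 4.41% of all genes) and 0 lower, and the median was -0.01. Beside Obp99b (difference 7.85 ± 1.14, limma adjusted p = 0.000344) these were Fbp2, with 3.10, 4.87 and 4.95 in ts1 and 10.05, 9.50 and 7.98 in ts1/E2 (adjusted p = 0.00515), and the storage protein gene Lsp2, with 4.98, 5.31 and 6.18 against 11.51, 10.82 and 8.74 (adjusted p = 0.0227). The Lsp2 call was lost without any of 3 arrays, with adjusted p up to 0.103. All 3 genes had WT means of 10.17 to 11.86. In the EMBL ts1 arrays Obp99b averaged 9.49, Fbp2 9.34 and Lsp2 8.96, with wide spreads (SDs of 3.02 to 3.34). Fbp1, another defining gene of the tissue, was 2.88 to 3.64 in ts1 and 6.20, 4.20 and 2.89 in ts1/E2, and did not pass. The mean level of the list was 5.55 to 7.05 in ts1 and 6.41 to 7.11 in ts1/E2, and the part of fat body RNA in these 3 genes was not tested.

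Single genes of the glial, hemocyte and cuticle lists were called as well. vkg, a collagen IV chain of basement membranes that was on both the glial and the hemocyte list, read 4.03, 4.72 and 4.15 in ts1 and 9.04, 9.16 and 7.42 in ts1/E2 (4.24 ± 0.59, limma adjusted p = 0.000227). It averaged 8.12 in WT and 7.90 in the EMBL ts1 arrays. The chitin synthase gene kkv read 2.31, 2.95 and 2.36 against 6.99, 7.96 and 7.45 (4.93 ± 0.80, adjusted p = 0.00102), with WT at 6.22. Over all tested genes 4.41% were called higher and 0.842% lower. The tracheal and cuticle list had 2 of 15 called higher (13.3%), kkv and Lcp9, and 2 lower (13.3%). The muscle list had 1 of 14 each way (7.14%), bt and Msp300. The higher one, Msp300, which has 6 probe sets, did not pass when they were averaged (difference 0.35). Beside vkg, 1 further hemocyte gene of 18 tested was called, PPO2 (3.90 ± 1.09), and 1 further glial gene of 23, Gs2 (1.82 ± 0.53). With vkg these made 11.1% of the hemocyte list and 8.7% of the glial list, small counts against 4.41% of all genes. PPO2 was lost without any of 5 arrays and Gs2 without any of the 6, with adjusted p up to 0.186 and 0.183. The mean level of the hemocyte list was 4.23 to 5.13 in ts1 and 5.0 to 5.73 in ts1/E2.

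Of 12 tested glycolytic genes 4 were called higher (33.3%, against 4.41% of all genes), the enzymes Pgk, Pgi, Tpi and Pglym78 with differences of 1.12 to 1.35, and the median was 0.89, with all 12 differences above 0. Pgk read 9.41, 10.35 and 8.49 in ts1 and 10.99, 10.97 and 10.36 in ts1/E2, with the lowest value on ts1 replicate 6. Without that array 0 of the 12 were called and the median was 0.73. Of 29 oxidative phosphorylation genes 2 were called higher (6.90%), a share near that of all genes, with a median of 0.40 and 26 differences above 0. COX8, a cytochrome c oxidase subunit, read 9.79, 9.88 and 10.32 in ts1 and 11.48, 11.22 and 11.21 in ts1/E2 (1.30 ± 0.20, limma adjusted p = 0.00076), a call that held whichever array was left out, while that of ox (1.36 ± 0.40, adjusted p = 0.0455) was lost without any of 5.

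The chromatin list of dREAM, LINT and MBT genes had 1 of 26 tested members called lower (3.85%, against 0.842% of all genes), the Polycomb gene Psc. Psc read 9.33, 9.05 and 8.91 in ts1 and 8.42, 7.59 and 7.95 in ts1/E2 (-1.11 ± 0.31, limma adjusted p = 0.0395). It was lost without any of 5 arrays, with adjusted p up to 0.191, and the list's median was -0.29. None of the tested members of the lists for the optic lobe (20), Hippo signalling (16), JNK and JAK-STAT (13), sex composition (12), imaginal discs (15), yolk and chorion (8) or antimicrobial peptides (11) was called. Their medians ran from -0.38 to 0.15.

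**Figure D5:**
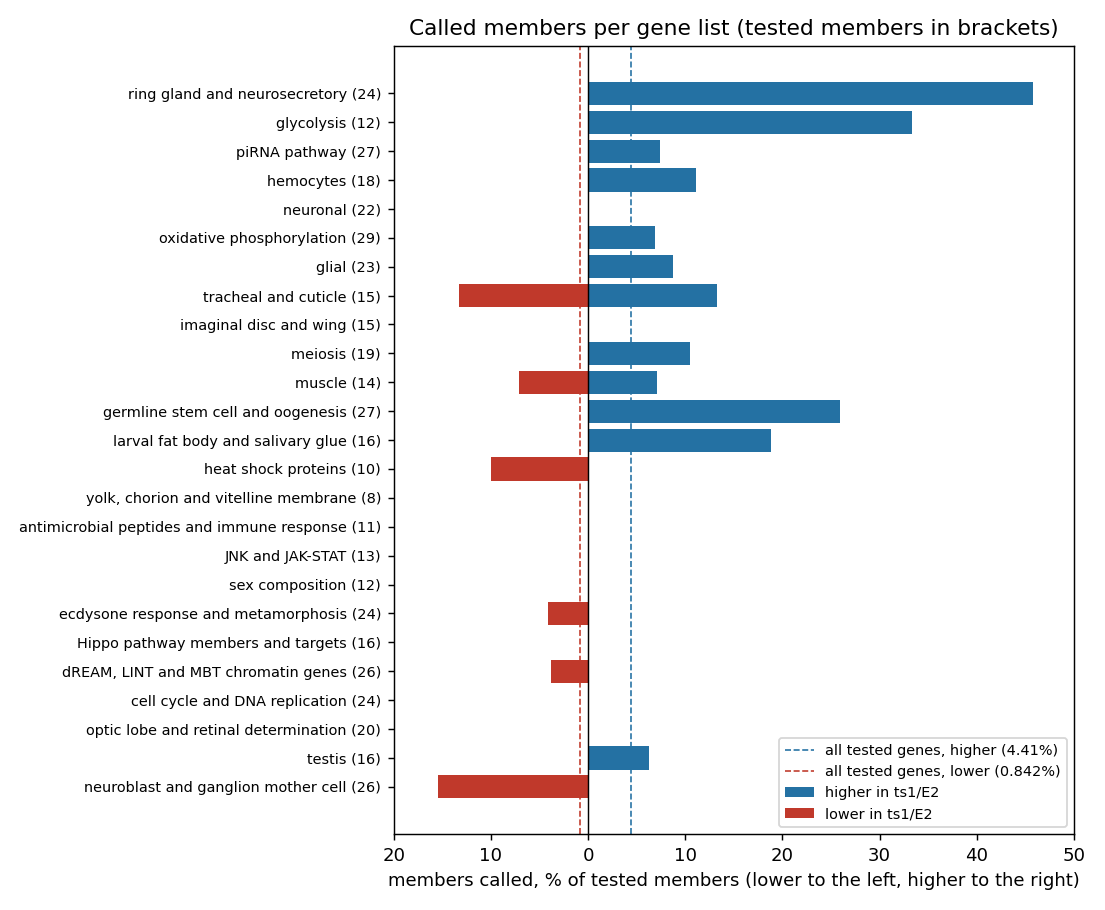
Share of the tested members of each of the 25 gene lists that were called lower (left, red) or higher (right, blue) in ts1/E2 than in ts1, with the number of tested members in brackets; dashed lines mark 4.41% and 0.842%, the shares over all tested genes. The neurosecretory list has 45.8% of members called higher and the neuroblast list 15.4% called lower.

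The ts1 homozygotes run at EMBL did not match those at IRB for many of these genes. Over all tested genes the absolute difference between the ts1 means of the sites had a median of 0.319 and reached 7.18. Of the 361 genes called higher the EMBL ts1 mean was nearer to ts1/E2 than to the IRB ts1 mean for 278, and of the 69 called lower for 37. These genes were chosen on the IRB ts1 arrays and both distances share the ts1/E2 arrays, so the counts are a description. Of the named genes, the EMBL means of piwi, nanos, bgcn, zpg, Ilp2, vkg and CG32313 were nearer to ts1/E2 than to the IRB ts1 arrays, whereas those of stil, CG10621 and yin were within 1 log2 unit of the IRB ts1 means. Set against the EMBL ts1 arrays, which was tried after seeing the data, 4.43% of the tested genes were called higher in ts1/E2 and 4.25% lower, with 7 and 0 of 24 neurosecretory genes, 2 and 2 of 27 germline genes and 0 and 5 of 26 neuroblast genes among them. In that setting the neuroblast list had a median of 0, against -0.60 with the IRB ts1 arrays and -0.1 over all tested genes. The neuronal list there had 11 of 22 called higher (median 1.39) and the cell cycle list 8 of 24 called lower (median -0.89). Their part in the neurosecretory and neuroblast counts was not tested. WT means of the sites were equal to within 6.7e-09 for every probe set, by a step that is not given in the sources used here. Levels set across the sites rest on that equality, and site and ts1 sample cannot be told apart.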

How the data were processed

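Log2 expression values per probe set were made and deposited by the authors with GCRMA, per the submitters' processing notes; its version is not given in the sources used here. GCRMA corrects background by probe sequence and normalises between arrays, which compresses dim probe sets to low values. Why the WT means of the sites are equal is not given either. Of 18952 probe sets, 13647 had 1 gene in the platform annotation, 402 had several and 4903, of which 183 are controls, were not listed. A gene took its probe set with the highest mean. Of 11982 genes, 8193 were tested, those over 4 on at least 3 arrays. Coordinates are not printed because no build is named.

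limma 3.58.1 in R 4.3.3 (lmFit, contrast, eBayes) was fitted to the 24 IRB arrays in 8 groups, with Benjamini-Hochberg adjustment over all tested genes, and was tested on simulated data. All 33 columns were mapped to samples by title. Arrays have no read depth, so 3 arrays a group limit the precision. The genes named were l(3)mbt, the 15 called genes with the largest difference each way whose groups do not overlap and whose higher mean is over 4, up to 4 called genes of each of 25 lists by the same conditions, and a set of germline, neural and hormone genes whatever their result. roX1 and roX2, also in that set, are not analysed here. Lists, members and tests were chosen with earlier results of these data known. Alternatives were other arrays in the fit, each array left out, other filters, probe set averaging, median centring, quantile normalisation, array weights, a robust trended prior, no minimum difference and, added later, the EMBL ts1 arrays as comparator.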

Additional observations from a re-analysis of the deposited data

How the results depend on the processing

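Against 430 calls (361 higher, 69 lower) and 93 calls from the midpoint, the 6 arrays alone gave 113 (101 higher, 12 lower), the 15 IRB brain arrays 253 (217 higher, 36 lower) and 39 from the midpoint, and array weights 1381 (866 higher, 515 lower) and 409. Leaving out 1 array gave 245 to 528 calls, 193 to 450 higher and 27 to 127 lower, and 24 to 180 from the midpoint. Without the 3 IRB arrays that stand apart there were 813 calls, 317 of them lower, and 167 from the midpoint. Lower calls were 123 with median centring, 134 with quantile normalisation and 154 with no minimum difference. These scalings moved the median difference of all genes to -0.13 and -0.11, and quantile normalisation moved the share of calls that were higher from 84% to 72.7%. With the EMBL ts1 arrays as comparator, an alternative chosen after seeing the data, there were 711 calls, 348 of them lower. Among named genes called in either fit, that comparator turned the direction for piwi (-1.72), nanos (-1.60), SoYb (-1.19), c(2)M (-0.76), Ilp5 (-0.13), Pglym78 (-0.14), Fbp2 (-0.17), CG15353 (-0.13), Lcp9 (-0.92), Pxt (1.91), Kots (1.17), elav (1.71), NLaz (0.75) and Psc (0.16). Of these, piwi, nanos, SoYb, Pxt, Kots and elav were called against the EMBL arrays. The others did not pass there (limma adjusted p from 0.199 to 0.967), so their difference was lost and a reversal is not shown. For the 79 named genes, no other alternative turned the direction of any called in either fit. Genes called in neither could change sign, as aub, krimp, dhd, EcR and elav did without ts1 replicate 6 and vas, AGO3, aub, Fbp1, l(3)mbt and br did against the EMBL arrays. With the 6 arrays alone 35 of the named genes were no longer called. The cause was not tested. No paired analysis was possible because the compared arrays carry different replicate numbers, 1 to 3 and 4 to 6. Filters on low values, probe set averaging, the robust trended prior and all 33 arrays kept the counts within 1.5 times.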

Other observations

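The neuropeptide genes FMRFa, SIFa and Ms are outside the neurosecretory list and were picked after their values were seen, so they say nothing of other neuropeptide genes, which were not counted. FMRFa read 4.72, 4.62 and 2.54 in ts1 and 9.34, 9.81 and 8.72 in ts1/E2 (difference 5.33 ± 0.71 SE), with WT at 8.71. SIFa read 1.91, 1.75 and 4.08 against 8.54, 7.41 and 6.29, with WT at 9.20, and Ms, the myosuppressin gene, read 9.52, 9.20 and 9.38 against 11.84, 12.08 and 11.31, with WT at 11.60. The groups did not overlap for any of the 3, and limma's calls for them held whichever of the 6 arrays was left out. Gcat and Tdh encode the paired enzymes of threonine breakdown to glycine and were also picked after their values were seen. Both spread widely in ts1: Gcat read 6.03, 8.34 and 3.31 and Tdh 3.83, 8.03 and 2.17, against 10.63 to 11.12 and 9.25 to 9.85 in ts1/E2.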
